A study of Mus musculus with 8 samples.

Results

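The 44 genes described here drive and carry out the mammalian cell cycle: cyclins and their kinases, E2F transcription factors, the machinery that licenses and copies DNA, the enzymes that make deoxynucleotides, and the proteins of mitosis. They were chosen by name, with no threshold on measured values but with earlier results of these data known, from 54134 genes in the deposited table. Of the 44 genes, 42 reached 1 TPM (transcript abundance scaled to a fixed library total) in at least 2 libraries and were tested, among 14985 such genes in all. E2f2 and Cenpf did not reach that level, with highest values of 0.657 and 0.498 TPM. Just inside it were Cdc6, Bub1 and Kif11, which reached 1 TPM in the Control libraries only.

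The cells were mouse bone marrow adipocytes of wild-type (WT) genotype, grown from bone marrow stem cells by 14 days of adipogenic differentiation in culture. Control cultures (n = 2) had the differentiation alone, and GC cultures (n = 3) received, besides, the synthetic glucocorticoid dexamethasone (DEX) at 1e-06 M over 24 hours. GC+GW9662 cultures (n = 3) received DEX in the same way plus GW9662, which inhibits PPARγ, the nuclear receptor that drives adipocyte identity; the sources used here give no GW9662 dose. All 8 libraries were made from total RNA by Smart-Seq2, a method that amplifies cDNA over its full length. Whether replicates are separate animals or cultures is not in the labels, and the p-values cover the spread between libraries alone, which may be technical.

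The estimated depth was 17435626 to 26524648 reads per library. It differed by group, at 25225418 and 26524648 reads in Control and 17435626 to 18470342 in GC+GW9662. In GC it was 17686296, 25622490 and 24948377 reads for replicates 1, 2 and 3. The libraries labelled Control had the highest Fkbp5 and Tsc22d3, which are textbook targets induced by glucocorticoids, with means of 446 and 557 TPM against 58.5 and 59.6 TPM in GC and 95.4 and 429 TPM in GC+GW9662. Whether these libraries match their labelled treatments was not tested. The group names below are those of the labels, and each rise or fall in GC holds only as labelled. It would not be a comparison with untreated cells if the medium of all cultures held a glucocorticoid. It would turn over if Control and GC were exchanged. In that case, GC+GW9662 against GC would set DEX plus GW9662 against cultures without added DEX. The comparison for GW9662 would then be GC+GW9662 against Control. Markers of the labelled adipocyte were detected in Control, and of 11 tested 9 were lower in GC and none higher. Adipoq went from 167 to 173 TPM in Control to 2.49 to 4.96 TPM in GC, whereas Cebpa was at 244 to 263 TPM in Control and 268 to 302 TPM in GC, and Pnpla2 overlapped between them (206 to 221 and 128 to 216 TPM). In GC+GW9662, 9 adipocyte markers were higher and 2 lower than in GC. There, Adipoq (246 to 261 TPM) and Fabp4 (647 to 777, against 280 to 321 TPM in Control) lay above Control. Lpl (84.8 to 101, against 602 to 641 TPM) and Plin1 (22.2 to 22.4, against 35.4 to 36.8 TPM) lay below it. The 15 macrophage markers summed to 34000 to 34500 TPM in Control, 10300 to 10700 TPM in GC and 29700 to 33500 TPM in GC+GW9662, none at 0 in all libraries, above the sums of the 12 adipocyte markers in every group (1690 to 1720, 449 to 559 and 1440 to 1590 TPM). Of the 15, 13 were lower and 1 higher in GC than in Control, and 12 were higher and 1 lower in GC+GW9662 than in GC. They differed singly: in the same order of groups, C1qa was at 7930 to 7960, 240 to 349 and 9740 to 10200 TPM. Csf1r was at 688 to 730, 15.4 to 39.4 and 123 to 147 TPM, and Cd68 at 956 to 1000, 2230 to 3030 and 516 to 647 TPM. The 12 stromal and fibroblast markers summed to 6400 to 6690, 151 to 296 and 3490 to 3630 TPM in the same order. Most of the sum in Control and GC+GW9662 was Acta2, at 4660 to 4870 and 3070 to 3160 TPM. Col1a1 was at 343 to 360 TPM in Control, 8.69 to 22.7 TPM in GC and 75.1 to 82.5 TPM in GC+GW9662. Of the 12, 11 were lower in GC than in Control, and 8 were higher and 1 lower in GC+GW9662 than in GC. The 8 neutrophil markers went from 21 to 26.7 TPM in Control to 249 to 550 TPM in GC and 72.4 to 83.9 TPM in GC+GW9662, nearly all of it S100a8, with Ltf at 0 throughout and Elane at 0 in every GC library. Lymphocyte, erythroid and endothelial markers summed to 11.6 TPM or less in every library. The part of these cell types in the results below was not tested. In such bulk RNA, fewer cycling cells and less of a transcript per cell cannot be told apart.

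A cell enters the cycle when D-type cyclins, bound to Cdk4 or Cdk6, phosphorylate the retinoblastoma protein and free E2F factors, which switch on cyclin E and the genes of DNA replication. Replication origins are licensed when Cdc6 and Cdt1 load the Mcm helicase, and DNA is then copied by polymerases held on by the Pcna clamp. Cyclin A, cyclin B and Cdk1 carry the cell through G2 into mitosis, where the Aurora and Polo kinases, the spindle checkpoint and the centromere separate the chromosomes. Mature adipocytes are known as cells that have largely left the cycle, and dexamethasone is part of common adipogenic mixtures.

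Cell cycle transcripts moved in both directions between Control and GC. D cyclins, ribonucleotide reductase, cyclins A and B, Cdk1 and most of the mitotic genes tested were lower in GC, while Ccne1, E2f1, Cdt1, Pcna and Aurka were higher. On log2(TPM + 1), the scale of every difference below (it understates the change of low genes), 5 members rose, 24 fell and 13 did not pass at an adjusted p of 0.05, with a median difference of -0.89. The members that fell include Bub1, Kif11 and Nusap1, which entered the test only through their Control levels. Over all genes tested, 16.2% were higher and 39.1% lower in GC, with a median of -0.38. Median-ratio scaling, which centres all genes near 0.05, gave 8 members higher and 16 lower, quantile normalization 9 and 13, and removal of the trend with gene length 9 and 14. Leaving out Control replicate 1 gave 3 higher and 17 lower, and leaving out Control replicate 2 gave 3 and 16.

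**Figure D1:**
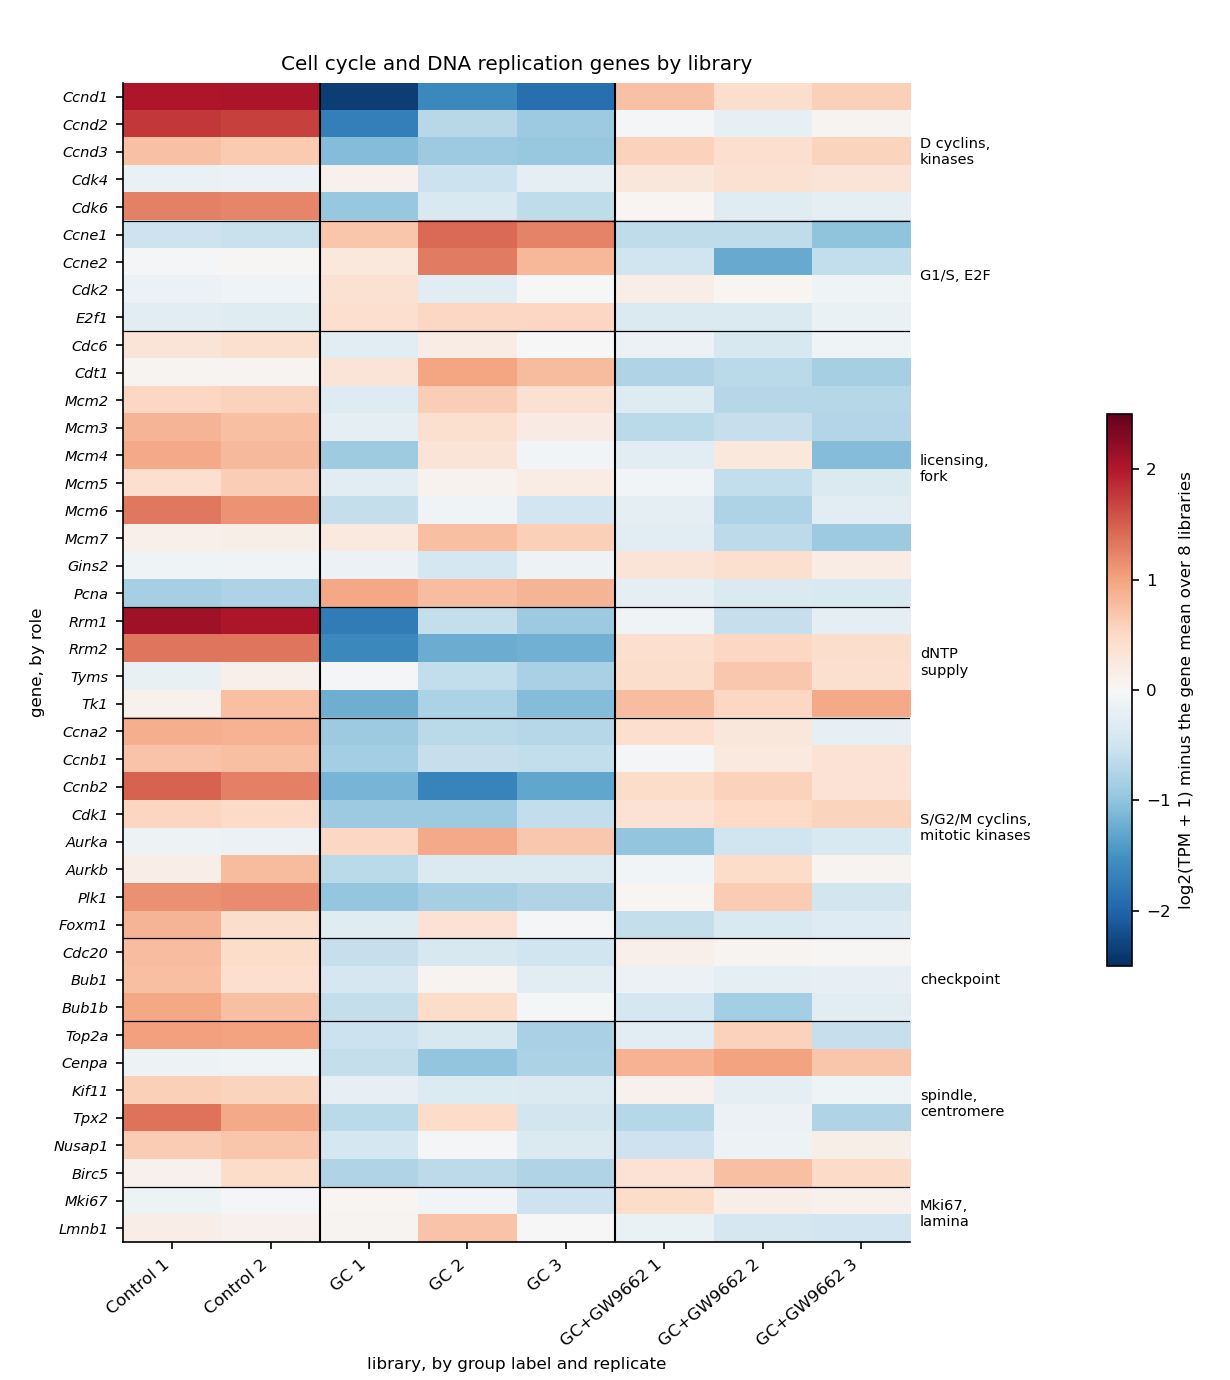
Level of the 42 tested members (rows, by role) in the 8 libraries (columns, by group), as log2(TPM + 1) minus the gene's mean over all libraries, red above and blue below that mean. Ccnd1, Rrm1 and Rrm2 are deep red in Control and blue in GC, and Ccne1 and Pcna show the opposite order. Cdt1 is red in GC and blue in GC+GW9662, with Control near its mean.

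With GW9662 added, 17 members were higher and 10 lower than in GC, and 15 did not pass; the median was 0.32. Of all genes tested, 28.3% were higher and 33.5% lower, with a median of -0.11. Removal of the length trend gave 21 higher and 9 lower. All 5 members that rose in GC were lower again in GC+GW9662. Of the 24 that fell in GC, 14 were higher in GC+GW9662 (Ccnd1, Ccnd2, Ccnd3, Rrm1, Rrm2, Tk1, Ccna2, Ccnb1, Ccnb2, Cdk1, Plk1, Cdc20, Cenpa and Birc5), 1 was lower still (Mcm3) and 9 did not pass. Of these 14, Tk1, Ccnb1, Ccnb2 and Plk1 were below 1 TPM in every GC library. They entered the test only through groups where they were higher, so the filter favoured this order for them. The comparisons share the GC libraries, so these counts are given side by side and not as separate evidence. The share of all tested genes that turned in this way is not given here, so the counts do not set the members apart from other genes.

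Against Control, GC+GW9662 cultures had 3 members higher (Cdk4, Pcna and Cenpa), 25 lower and 14 not passing, with a median of -0.74. The background was 14.1% of genes higher and 48.6% lower, with a median of -0.49. This count moved with scaling: median-ratio scaling and quantile normalization each gave 12 higher and 9 lower, removal of the length trend 13 and 6, and a count-based fit of recovered reads 10 and 12. It also rested on the control libraries, since leaving out Control replicate 1 gave 10 members passing and leaving out replicate 2 gave 13, where the full data gave 28.

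**Figure D2:**
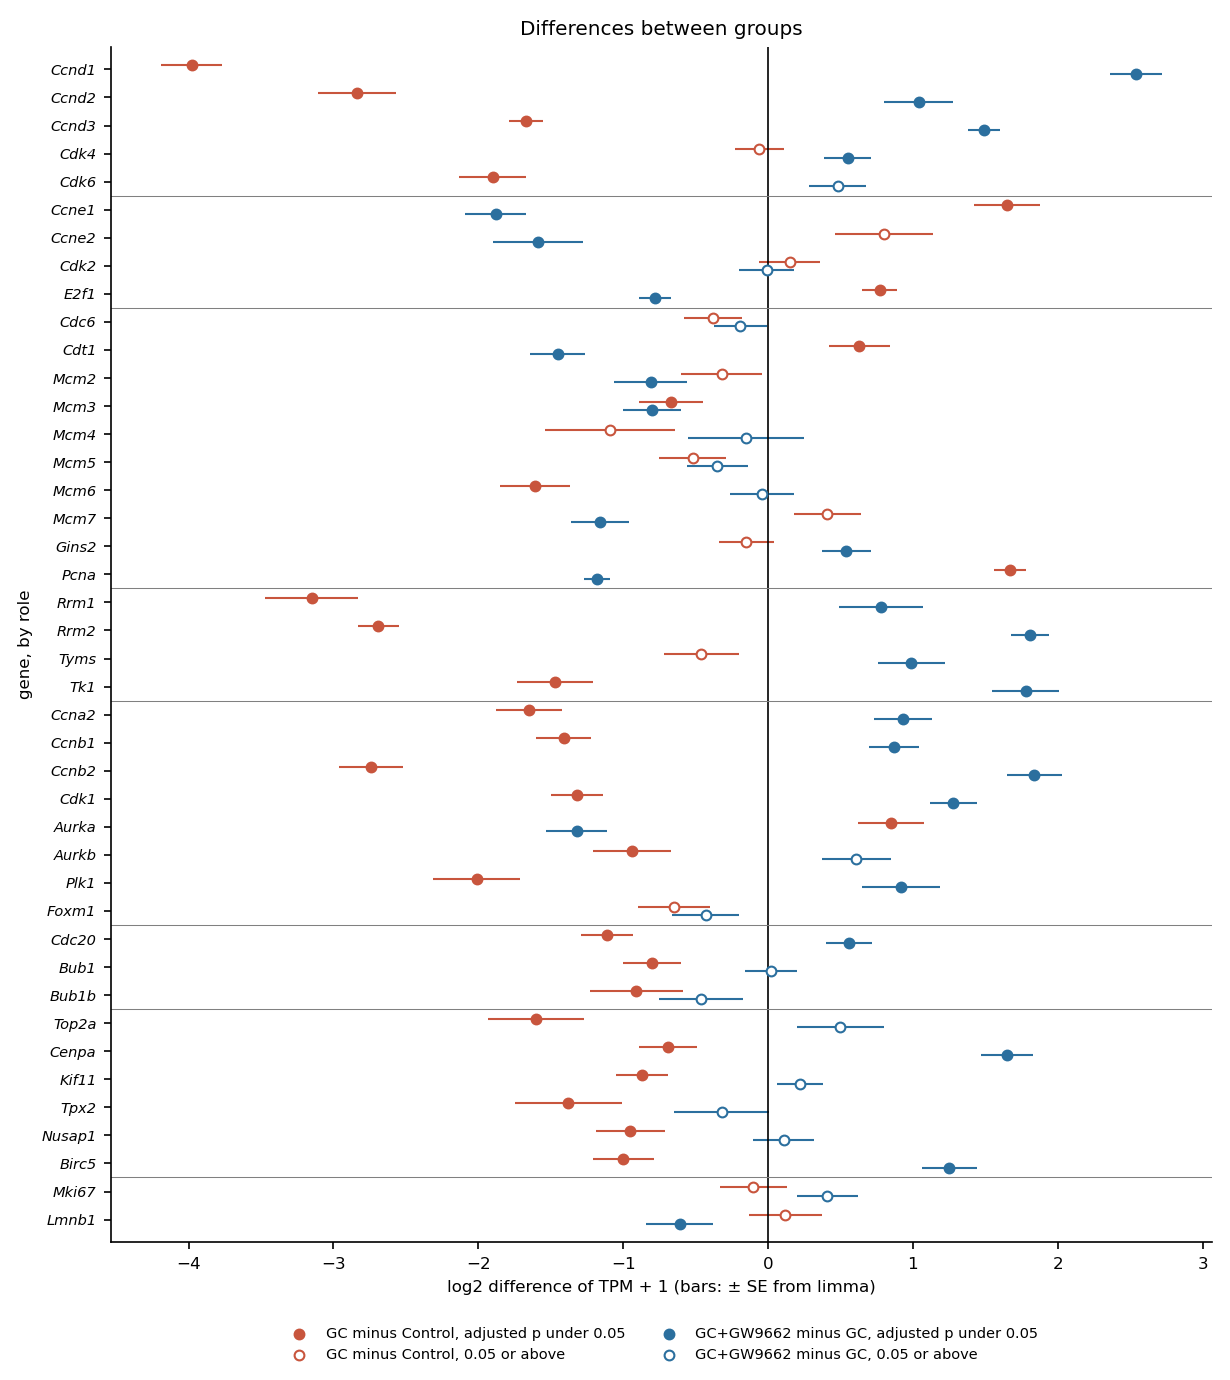
Difference of each tested member, by role, in log2(TPM + 1) with its standard error, for GC minus Control and GC+GW9662 minus GC; filled points passed an adjusted p of 0.05. Most pairs of points lie on opposite sides of 0, with Ccnd1 at -3.98 and 2.54 and Ccne1 at 1.65 and -1.88, and Mcm3 lies below 0 in both.

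The CCAAT box, the binding letters of the factor NF-Y, is a known feature of G2 and mitotic promoters, and its letters were looked for upstream of the members. RefSeq entries (GRCm38.p6) matched 34 of the 44 genes. In the 250 bases before the start, CCAAT on either strand was present in 23 of 34 (67.6%), against 34.5% of 27025 promoters, and at least 2 copies in 15 (44.1%), against 10.5%. Among the matched members, 14 of 19 that fell in GC held at least 1 copy and 10 at least 2, as did 2 of the 5 that rose (Aurka and Pcna), of which Aurka held at least 2. Of the 8 matched members that did not pass, 5 (62.5%) held at least 1 copy and 3 at least 2, beside 73.7% and 52.6% of those that fell; the difference was not tested. The cell cycle homology letters TTTGAA or TTCGAA were in 9 of 34 (26.5%, against 17.4%), and an E2F site spelled TTTCCCGC, TTTCGCGC, TTTGGCGC or TTTGCCGC was in 6 (17.6%, against 1.91%), on either strand, with overlapping matches of different motifs each counted. A match describes letters only.

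The 6 stretches below show the boxes, with CCAAT or its reverse ATTGG in capitals, within 120 bases upstream of the start and outside annotated exons. The first 4 belong to genes that fell in GC and the last 2 to genes that rose.
Ccnb2: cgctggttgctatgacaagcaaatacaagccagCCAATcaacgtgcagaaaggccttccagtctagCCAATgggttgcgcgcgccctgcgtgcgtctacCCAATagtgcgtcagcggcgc
Cdk1: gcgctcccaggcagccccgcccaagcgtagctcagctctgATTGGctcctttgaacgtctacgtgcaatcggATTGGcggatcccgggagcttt
Cdc20: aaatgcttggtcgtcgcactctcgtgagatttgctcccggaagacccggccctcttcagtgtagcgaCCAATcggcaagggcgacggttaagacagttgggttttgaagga
Rrm1: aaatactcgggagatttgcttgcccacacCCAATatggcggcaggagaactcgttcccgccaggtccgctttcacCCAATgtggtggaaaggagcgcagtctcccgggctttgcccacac
Aurka: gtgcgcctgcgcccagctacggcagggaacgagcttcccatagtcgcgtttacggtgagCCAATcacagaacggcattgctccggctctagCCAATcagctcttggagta
Cdt1: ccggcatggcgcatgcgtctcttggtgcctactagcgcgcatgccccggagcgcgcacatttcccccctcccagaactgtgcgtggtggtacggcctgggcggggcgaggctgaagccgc
These lie, each 5′ to 3′ on the gene's strand, at chr9:70421555-70421674 (minus) for Ccnb2, chr10:69352939-69353032 (minus) for Cdk1, chr4:118437353-118437463 (minus) for Cdc20, chr7:102441575-102441694 (plus) for Rrm1, chr2:172370571-172370680 (minus) for Aurka and chr8:122567895-122568014 (plus) for Cdt1. The Ccnb2 stretch holds 3 boxes spaced 33 bases apart, beginning 87, 54 and 21 bases before the start. The Cdk1 pair lies 32 bases apart, and so does that of Aurka, which moved the opposite way. The Rrm1 boxes are 46 bases apart, Cdc20 shows 1 box here, and the Cdt1 stretch holds none.

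D-type cyclins and their kinases carried the most RNA of the roles in Control, with summed levels of 762 and 754 TPM, and fell to 248, 210 and 228 TPM in GC before standing at 476, 450 and 470 TPM in GC+GW9662. Of the 5 members, 4 fell in GC and 4 were higher in GC+GW9662 than in GC. Ccnd1, the cyclin that links growth factor signals to Cdk4 and Cdk6, measured 317 and 319 TPM in Control, 14.3, 24.6 and 20 TPM in GC, and 129, 105 and 116 TPM in GC+GW9662. No library overlapped another group, and the Control mean was 16.2 times the GC mean. Of its annotated exon bases, 23.4% are shared with Oraov1 on the opposite strand, which averaged 15.7 TPM, near the Ccnd1 level in GC. The difference was -3.98 ± 0.21 (SE; adjusted p = 2.9e-06) in GC and 2.54 ± 0.18 (adjusted p = 1.6e-05) for GC+GW9662 over GC, and GC+GW9662 differed from Control by -1.44 ± 0.21 (adjusted p = 0.0019).

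Ccnd2, another D cyclin, measured 201 and 192 TPM in Control, 17.1, 35.9 and 30.7 TPM in GC, and 56.9, 50.6 and 61.3 TPM in GC+GW9662. The groups stood apart, with GC lowest and GC+GW9662 nearer to GC than to Control. The differences were -2.84 ± 0.27 (adjusted p = 6.7e-05), 1.04 ± 0.24 (adjusted p = 0.0069) and, against Control, -1.79 ± 0.27 (adjusted p = 0.0021); the last was -0.27 and did not pass once the length trend was removed. Ccnd3 fell from 68.7 ± 2.39 TPM (SD, n = 2) to 20.9 ± 1.51 TPM (n = 3) and returned to 60.8 ± 3.86 TPM (n = 3), with differences of -1.67 ± 0.12 (adjusted p = 1.6e-05) and 1.49 ± 0.11 (adjusted p = 1.6e-05).

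Cdk4, the D cyclins' main partner, measured 160 and 163 TPM in Control, 195, 124 and 153 TPM in GC, and 221, 234 and 227 TPM in GC+GW9662. GC libraries lay on either side of Control, and the GC+GW9662 libraries were the highest. Cdk4 was higher in GC+GW9662 than in GC by 0.55 ± 0.16 (adjusted p = 0.016; lost under quantile normalization and under rescaling without mitochondrial and top genes) and than in Control by 0.49 ± 0.17 (adjusted p = 0.037; lost under 9 of 23 alternatives, among them leaving out Control replicate 1 or 2, GC replicate 3 or any GC+GW9662 replicate). Of its exon bases, 19.7% are shared with Tspan31 on the opposite strand, which averaged 521 TPM, and the counting is not stated to use strand. Cdk6, the alternative partner, fell from 12.7 ± 0.202 to 2.72 ± 0.733 TPM, by -1.9 ± 0.23 (adjusted p = 0.00021), and measured 4.16 ± 0.695 TPM in GC+GW9662, which did not pass against GC.

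Of the 4 tested members among cyclin E, Cdk2 and E2F genes, 2 rose in GC, none fell, and 3 were lower in GC+GW9662 than in GC. Ccne1, the cyclin that activates Cdk2 at the entry into S phase, measured 10.1 and 9.72 TPM in Control, 24.7, 41.0 and 36.4 TPM in GC, and 9.1, 9.11 and 6.87 TPM in GC+GW9662. Every GC library was above every other library, at 3.43 times the Control mean. The differences were 1.65 ± 0.23 (adjusted p = 0.00054) and -1.88 ± 0.21 (adjusted p = 0.00015), and neither call was lost under any alternative.

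Ccne2 measured 4.33 and 4.59 TPM in Control, 5.53, 12.4 and 8.77 TPM in GC, and 2.87, 1.28 and 2.56 TPM in GC+GW9662. The groups did not overlap, but the spread within GC was wide and the GC difference did not pass; GC+GW9662 was lower than GC by -1.59 ± 0.31 (adjusted p = 0.0028). Ints8 on the opposite strand, at a mean of 12.3 TPM, shares 17.4% of its exon bases. E2f1, the activator that D cyclin kinases release, measured 30.5 and 29.5 TPM in Control, 49.8, 52.9 and 52.7 TPM in GC, and 28.2, 28.4 and 32.8 TPM in GC+GW9662. Its GC libraries stood above all others, while Control and GC+GW9662 overlapped. E2f1 rose by 0.77 ± 0.12 (adjusted p = 0.001) and was lower in GC+GW9662 by -0.78 ± 0.11 (adjusted p = 0.00051). Cdk2 measured 9.54 and 10.0 TPM in Control, 14.1, 8.68 and 10.8 TPM in GC, and 12, 11.1 and 9.8 TPM in GC+GW9662; the groups overlapped and it passed in no comparison.

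**Figure D3:**
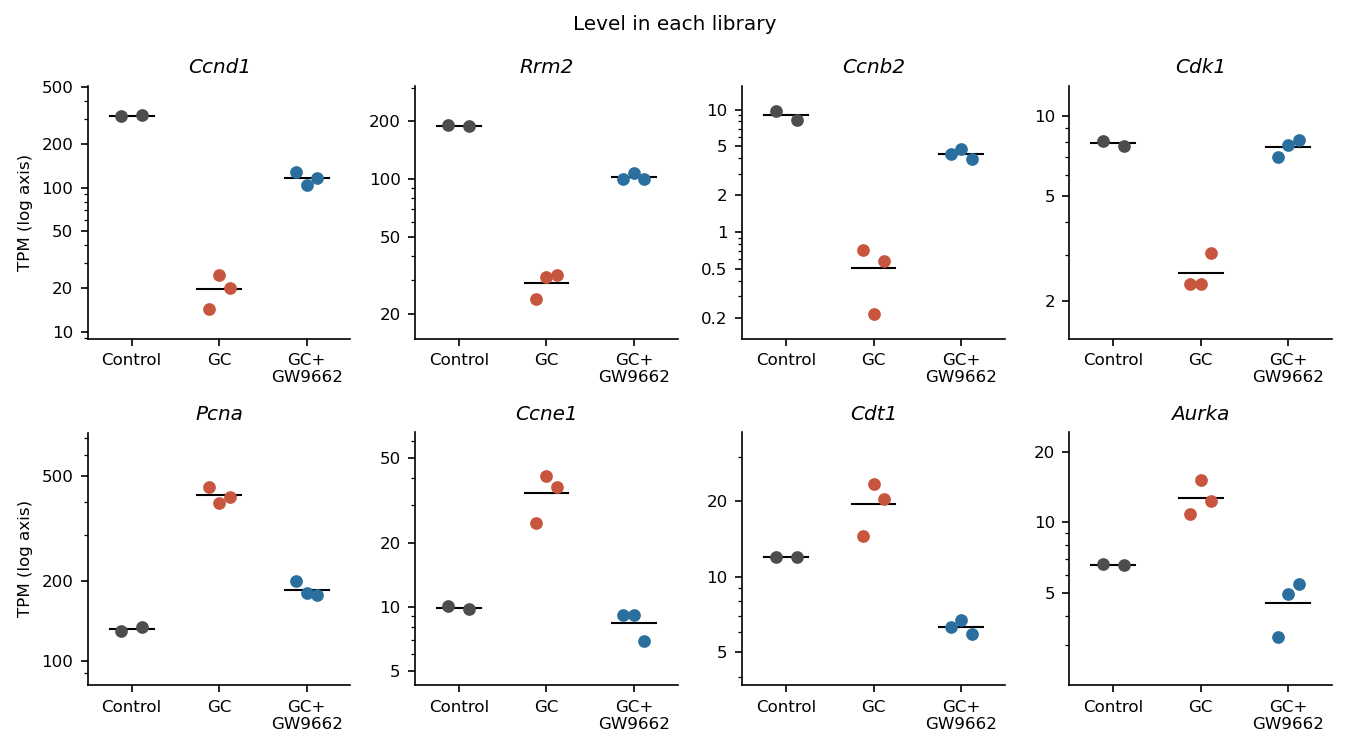
TPM in each library (points; log axis) and the group mean (line) for 8 members. Ccnd1, Rrm2, Ccnb2 and Cdk1 are lowest in GC, and Pcna, Ccne1, Cdt1 and Aurka are highest in GC, with no GC point inside another group's range.

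Licensing and fork genes were mixed. Their summed level rose from 243 and 245 TPM in Control to 524, 503 and 512 TPM in GC and was 259, 235 and 223 TPM in GC+GW9662, a sum that Pcna dominated. Of the 10 members, 2 rose in GC (Cdt1 and Pcna), 2 fell (Mcm3 and Mcm6) and 6 did not pass. Pcna, the sliding clamp, measured 130 and 135 TPM in Control, 457, 395 and 417 TPM in GC, and 200, 181 and 178 TPM in GC+GW9662. The order GC above GC+GW9662 above Control held without overlap, and among tested members only Cdk2, which passed in no comparison, had the same order of means. Pcna rose by 1.67 ± 0.11 (adjusted p = 7.8e-06), was lower in GC+GW9662 by -1.18 ± 0.09 (adjusted p = 2.5e-05) and stayed above Control by 0.49 ± 0.11 (adjusted p = 0.0052). Its pseudogene Pcna-ps2 was listed at 5.97 TPM or less, and reads shared by such copies may be split in counting.

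Cdt1, which loads the Mcm helicase onto origins, measured 12 and 12 TPM in Control, 14.5, 23.4 and 20.4 TPM in GC, and 6.32, 6.75 and 5.93 TPM in GC+GW9662. All GC libraries were above Control and all GC+GW9662 libraries below it. The rise of 0.63 ± 0.21 (adjusted p = 0.035) was lost under 10 of 23 alternatives (highest adjusted p = 0.15), among them leaving out either Control library, GC replicate 2 or 3, and replicate 1 or 3 of GC+GW9662. The difference of -1.45 ± 0.19 (adjusted p = 0.00034) between GC+GW9662 and GC was lost under none. Cdc6, its loading partner, measured 1.1 and 1.23 TPM in Control, 0.396, 0.929 and 0.688 TPM in GC, and 0.524, 0.286 and 0.565 TPM in GC+GW9662, and passed only as lower in GC+GW9662 than in Control.

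Of the Mcm2 to Mcm7 subunits of the replicative helicase, Mcm3 and Mcm6 passed in GC against Control. Mcm2 measured 16.3 and 16.9 TPM in Control, 8.6, 17.4 and 14.8 TPM in GC, and 8.59, 6.34 and 6.39 TPM in GC+GW9662. Its GC libraries spread around Control, and GC+GW9662 was lower than GC by -0.81 ± 0.25 (adjusted p = 0.024; lost under 6 of 23 alternatives, among them leaving out replicate 2 or 3 of GC+GW9662, or of GC). Mcm3 measured 11.3 and 10.6 TPM in Control, 4.9, 8.06 and 6.93 TPM in GC, and 3.27, 3.57 and 3.13 TPM in GC+GW9662, a stepwise order without overlap. Its GC difference of -0.67 ± 0.22 (adjusted p = 0.031) was 0.07 under quantile normalization and was lost under 9 other alternatives, among them the other 3 scalings, voom and leaving out Control replicate 1 or 2 or GC replicate 3. The further step to GC+GW9662 of -0.8 ± 0.2 (adjusted p = 0.0085) was lost under none, and its difference from Control there was -1.46 ± 0.22 (adjusted p = 0.002).

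Mcm6 measured 22 and 19.1 TPM in Control, 5.1, 7.72 and 5.61 TPM in GC, and 6.89, 4.39 and 6.6 TPM in GC+GW9662. It fell in GC by -1.61 ± 0.24 (adjusted p = 0.00076), overlapped between GC and GC+GW9662, and with GW9662 differed from Control by -1.65 ± 0.24 (adjusted p = 0.002), a call that did not pass after removal of the length trend (-0.49). Mcm7 instead measured 17.9 and 18.2 TPM in Control, 19.7, 28.3 and 25.5 TPM in GC, and 13.3, 10.0 and 8.24 TPM in GC+GW9662. GC was above both other groups in every library, yet only the fall of -1.16 ± 0.2 (adjusted p = 0.0017) from GC to GC+GW9662 is called in these 2 comparisons; it shares 7.25% of exon bases with Ap4m1 and 1.45% with Cops6 on the opposite strand. Mcm4 measured 19.9 and 17.8 TPM in Control, 4.8, 12.4 and 9.25 TPM in GC, and 7.93, 11.9 and 4.05 TPM in GC+GW9662. Mcm5 measured 8.24 and 9.52 TPM in Control, 4.74, 6.3 and 6.77 TPM in GC, and 5.53, 3.49 and 4.36 TPM in GC+GW9662. Both were highest in Control and passed only as lower in GC+GW9662 than in Control.

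Gins2, a subunit of the active helicase, measured 4.5 and 4.6 TPM in Control, 4.34, 3.37 and 4.42 TPM in GC, and 6.36, 6.8 and 5.72 TPM in GC+GW9662. It was higher in GC+GW9662 than in GC by 0.54 ± 0.17 (adjusted p = 0.024; lost under 10 of 23 alternatives, among them leaving out either Control library, GC replicate 2 or 3, and replicate 1 or 2 of GC+GW9662), and 67.3% of its exon bases overlap Gse1 on the opposite strand, so its reads are uncertain.

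Deoxynucleotide supply had the largest fold fall in summed level of the roles, from 269 and 266 TPM in Control to 33.5, 44.9 and 42.7 TPM in GC, with 126, 131 and 126 TPM in GC+GW9662. Of its 4 members 3 fell in GC, and all 4 were higher in GC+GW9662 than in GC. Rrm2, the regulated small subunit of ribonucleotide reductase, measured 191 and 189 TPM in Control, 23.9, 31.0 and 31.8 TPM in GC, and 100, 108 and 101 TPM in GC+GW9662. The 3 groups were well apart. The differences were -2.69 ± 0.14 (adjusted p = 3e-06), 1.81 ± 0.13 (adjusted p = 1.3e-05) and, against Control, -0.88 ± 0.14 (adjusted p = 0.0023), the last being -0.16 and not passing under median-ratio scaling.

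Rrm1, the large subunit, whose upstream stretch is printed above, measured 71.0 and 66.8 TPM in Control, 3.97, 10.0 and 7.92 TPM in GC, and 14.7, 10.2 and 13.2 TPM in GC+GW9662. It fell by -3.15 ± 0.32 (adjusted p = 9.2e-05) and with GW9662 differed from Control by -2.37 ± 0.32 (adjusted p = 0.0017). Its difference of 0.78 ± 0.29 (adjusted p = 0.044) over GC was lost under 11 of 23 alternatives, among them leaving out Control replicate 1 or 2, GC replicate 3 or any GC+GW9662 replicate. The subunits of this enzyme stood at 103 ± 4.47 TPM for Rrm2 and 12.7 ± 2.3 TPM for Rrm1 in GC+GW9662, from 190 ± 1.5 and 68.9 ± 3.0 TPM in Control.

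Tk1, the thymidine salvage kinase, measured 1.82 and 3.39 TPM in Control, 0.121, 0.497 and 0.227 TPM in GC, and 3.46, 2.72 and 3.99 TPM in GC+GW9662. The GC values rest on an estimated 3, 15 and 7 reads. Tk1 fell by -1.47 ± 0.26 (adjusted p = 0.0017) and was higher in GC+GW9662 by 1.78 ± 0.23 (adjusted p = 0.00034), where it overlapped Control. Tyms, which makes thymidylate, measured 4.86 and 6.27 TPM in Control, 5.49, 3.36 and 2.8 TPM in GC, and 8.06, 9.61 and 7.73 TPM in GC+GW9662. Control and GC overlapped, and GC+GW9662 was above GC by 0.99 ± 0.23 (adjusted p = 0.0073).

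Cyclins A and B and Cdk1, which drive G2 and mitosis, fell together in GC and were higher with GW9662. The role of S, G2 and mitotic cyclins and kinases held 6 of 8 members lower in GC, with Aurka alone higher and Foxm1 not passing. Ccna2, the cyclin of S phase and G2, measured 11.2 and 10.9 TPM in Control, 2.46, 3.06 and 2.96 TPM in GC, and 7.68, 6.91 and 4.6 TPM in GC+GW9662. The groups did not overlap, and the differences were -1.65 ± 0.23 (adjusted p = 0.00047) and 0.93 ± 0.2 (adjusted p = 0.0051); 12.5% of its exon bases overlap Exosc9. Cdk1, the mitotic kinase, measured 8.09 and 7.7 TPM in Control, 2.33, 2.32 and 3.06 TPM in GC, and 7.02, 7.78 and 8.12 TPM in GC+GW9662. Control and GC+GW9662 overlapped while GC lay below both, with differences of -1.32 ± 0.18 (adjusted p = 0.00048) and 1.28 ± 0.16 (adjusted p = 0.00033).

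The B cyclins, which activate Cdk1, also fell. Ccnb2 measured 9.74 and 8.27 TPM in Control, 0.719, 0.216 and 0.579 TPM in GC, and 4.3, 4.78 and 3.96 TPM in GC+GW9662. The Control mean was 17.8 times that of GC, where the values rest on an estimated 11, 4 and 11 reads. Its differences were -2.74 ± 0.22 (adjusted p = 2.3e-05) and 1.84 ± 0.19 (adjusted p = 0.00011). Ccnb1 went from 2.61 ± 0.0508 TPM in Control to 0.362 ± 0.141 TPM in GC and 1.5 ± 0.334 TPM in GC+GW9662, with differences of -1.41 ± 0.19 (adjusted p = 0.00046) and 0.87 ± 0.17 (adjusted p = 0.0032). Plk1, the Polo kinase of mitotic entry, went from 5.52 ± 0.164 to 0.624 ± 0.117 and 2.22 ± 1.23 TPM, with differences of -2.01 ± 0.3 (adjusted p = 0.00077) and 0.92 ± 0.27 (adjusted p = 0.019).

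Aurka, the spindle pole kinase, was the member of this role that rose. It measured 6.64 and 6.56 TPM in Control, 10.9, 15.1 and 12.3 TPM in GC, and 3.25, 4.95 and 5.46 TPM in GC+GW9662. GC was highest and GC+GW9662 lowest, without overlap. Aurka rose by 0.85 ± 0.23 (adjusted p = 0.016; lost when either Control replicate 1 or Control replicate 2 was left out) and was lower in GC+GW9662 by -1.32 ± 0.21 (adjusted p = 0.001). Aurkb, the kinase of the chromosomal passenger complex, went the other way in GC, from 3.84 ± 1.46 to 1.48 ± 0.302 TPM, by -0.94 ± 0.27 (adjusted p = 0.017), a call lost under median-ratio scaling, quantile normalization and length-trend removal and without Control replicate 2. Foxm1, the transcription factor of G2 and mitotic genes, measured 4.32 and 3.01 TPM in Control, 1.38, 2.79 and 1.85 TPM in GC, and 0.958, 1.26 and 1.36 TPM in GC+GW9662, and passed only as lower in GC+GW9662 than in Control.

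The spindle checkpoint and anaphase genes Cdc20, Bub1 and Bub1b passed as lower in GC, although Bub1 reached 1 TPM in Control alone and so could enter the test only by being higher there. Cdc20, the activator of the anaphase-promoting complex, measured 10.6 and 8.34 TPM in Control, 3.57, 4.14 and 3.78 TPM in GC, and 6.37, 6.12 and 5.9 TPM in GC+GW9662. The groups stood apart with GC+GW9662 in between. Its differences were -1.11 ± 0.18 (adjusted p = 0.0011; lost under quantile normalization) and 0.56 ± 0.16 (adjusted p = 0.017; lost under 3 of 23 alternatives, among them leaving out GC replicate 3 or GC+GW9662 replicate 1). Of its exon bases, 2.84% are shared with Elovl1, which averaged 219 TPM.

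Bub1, a checkpoint kinase, measured 1.79 and 1.23 TPM in Control, 0.234, 0.748 and 0.377 TPM in GC, and 0.51, 0.428 and 0.449 TPM in GC+GW9662. Bub1b, the checkpoint protein BubR1, measured 3.71 and 3.09 TPM in Control, 0.6, 2.32 and 1.38 TPM in GC, and 0.792, 0.349 and 1.01 TPM in GC+GW9662. For both genes Control was highest and the treated groups overlapped. Bub1 fell by -0.8 ± 0.2 (adjusted p = 0.011; lost under median-ratio scaling, quantile normalization and length-trend removal). Bub1b fell by -0.91 ± 0.32 (adjusted p = 0.041), a call lost under 15 of 22 alternatives, among them leaving out either Control library, GC replicate 1 or 3, and replicate 1 of GC+GW9662.

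The 6 tested genes of the spindle, centromere and chromosome structure passed as lower in GC, and each of these calls was lost under quantile normalization and under length-trend removal. Kif11 among them reached 1 TPM in Control alone, so its entry into the test already required a high Control level. Nusap1 reached 1 TPM outside Control only in GC+GW9662 replicate 3 (1.2 TPM), so its entry required the same. Cenpa and Birc5 were higher in GC+GW9662 than in GC. Top2a, the topoisomerase that untangles sister DNA, measured 7.32 and 7.23 TPM in Control, 1.82, 2.1 and 1.34 TPM in GC, and 2.43, 5.12 and 1.75 TPM in GC+GW9662. Control stood above every treated library, and GC+GW9662 replicate 2 lay apart from its group. Top2a fell by -1.6 ± 0.33 (adjusted p = 0.0041; lost under quantile normalization and length-trend removal). Tpx2, which targets Aurka to the spindle, measured 7.81 and 5.62 TPM in Control, 1.17, 3.71 and 1.5 TPM in GC, and 1.09, 2.1 and 1.04 TPM in GC+GW9662, and fell by -1.38 ± 0.37 (adjusted p = 0.013; lost under the same pair, median-ratio scaling and without Control replicate 1). Tpx2 and its partner Aurka had opposite calls in GC.

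Birc5, the survivin subunit of the passenger complex, measured 3.51 and 4.8 TPM in Control, 1.5, 1.66 and 1.5 TPM in GC, and 4.36, 6.12 and 4.83 TPM in GC+GW9662. GC was below both other groups, which overlapped; the differences were -1.0 ± 0.21 (adjusted p = 0.0042; lost under median-ratio scaling, quantile normalization, length-trend removal and without Control replicate 2) and 1.25 ± 0.19 (adjusted p = 0.00077). Cenpa, the histone variant that marks centromeres, measured 2.58 and 2.7 TPM in Control, 1.6, 0.976 and 1.25 TPM in GC, and 6.16, 6.88 and 5.3 TPM in GC+GW9662. It was the member of this role that passed as higher with GW9662 than in Control, by 0.96 ± 0.2 (adjusted p = 0.0048), and it exceeded GC by 1.65 ± 0.18 (adjusted p = 0.00015). Its fall in GC of -0.69 ± 0.2 (adjusted p = 0.021) was lost under 10 of 23 alternatives, among them all 4 scalings and leaving out Control replicate 1 or 2 or GC replicate 2 or 3. Kif11, the motor that separates spindle poles, fell from 1.74 ± 0.06 to 0.5 ± 0.0899 TPM (-0.87 ± 0.18, adjusted p = 0.0034; lost under quantile normalization and length-trend removal), and Nusap1, a spindle microtubule protein, from 2.15 ± 0.0935 to 0.647 ± 0.256 TPM (-0.95 ± 0.24, adjusted p = 0.01; lost under those, median-ratio scaling and without Control replicate 1 or 2).

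The proliferation antigen Mki67, the usual marker of cycling cells, passed in no comparison. It measured 1.29 and 1.45 TPM in Control, 1.61, 1.39 and 0.753 TPM in GC, and 2.45, 1.77 and 1.69 TPM in GC+GW9662. Control and GC overlapped, and the difference of -0.1 ± 0.23 (adjusted p = 0.75) changed sign under 7 of 22 alternatives; it was 1.06 after removal of the length trend. The length used for it, 10061 bases, was exceeded among tested members by that of Cdk6 alone. Lmnb1, the nuclear lamina protein whose loss is a known mark of senescent cells, measured 5.61 and 5.29 TPM in Control, 5.11, 8.6 and 4.9 TPM in GC, and 4.22, 3.41 and 3.21 TPM in GC+GW9662. Control and GC overlapped, and the GC+GW9662 libraries were the lowest. Lmnb1 was lower in GC+GW9662 than in GC by -0.61 ± 0.23 (adjusted p = 0.045), a call lost under 15 of 23 alternatives, among them leaving out any library other than GC replicate 1.

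Across the wider pathway, 108 of 120 further cell cycle genes were tested: 18 were higher and 49 lower in GC than in Control, 17 higher and 26 lower in GC+GW9662 than in GC, and 8 higher and 49 lower in GC+GW9662 than in Control. In GC against Control these are 16.7% and 45.4% of the pathway genes tested, near the 16.2% and 39.1% of all genes, and in GC+GW9662 against GC 15.7% and 24.1%, under the 28.3% and 33.5% of all genes. Against Control, GC+GW9662 gave 7.41% and 45.4%, beside 14.1% and 48.6%. The balance in GC against Control turned with scaling: median-ratio scaling gave 25 higher and 30 lower, quantile normalization 28 and 22, and removal of the length trend 26 and 24. In GC+GW9662 against Control the same 3 gave 31 and 30, 35 and 25, and 19 and 17. Mitosis and cytokinesis genes had 2 of 42 higher and 25 lower in GC, and genes of origin recognition, loading and firing 7 of 16 higher and 4 lower. Some of these genes entered the test only through the group where they were high. Nuf2, Kif2c, Hmmr, Dlgap5, Cdca2, Timeless, Wdhd1 and Pole, all lower in GC, reached 1 TPM in Control alone. Kif18b and Cdc25c, also lower, needed Control as well, with 1.14 TPM in GC+GW9662 replicate 1 and 1.32 TPM in GC replicate 2 besides. Cdc7, higher in GC, needed its GC libraries. Gmnn, geminin, the inhibitor that binds Cdt1, fell from 35.7 ± 2.87 to 10.7 ± 1.03 TPM in GC and stood at 46.3 ± 1.32 TPM in GC+GW9662 (-1.66 ± 0.13, adjusted p = 2.7e-05, and 2.02 ± 0.12, adjusted p = 5.6e-06), opposite to Cdt1. Ccnf, cyclin F, a ubiquitin ligase subunit that targets Rrm2 and other cycle proteins, measured 4.17 and 3.52 TPM in Control, 23.9, 56.1 and 43.0 TPM in GC, and 1.53, 0.413 and 0.875 TPM in GC+GW9662, without overlap. Its differences were 3.04 ± 0.38 (adjusted p = 0.00026) and -4.4 ± 0.34 (adjusted p = 2e-05).

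Stmn1, a microtubule-destabilizing protein, rose from 5.39 ± 0.946 to 49.3 ± 4.91 TPM in GC and was 7.52 ± 0.904 TPM in GC+GW9662 (2.98 ± 0.18, adjusted p = 5.7e-06, and -2.56 ± 0.16, adjusted p = 6.9e-06). Ube2s, a ubiquitin-conjugating enzyme of the anaphase-promoting complex, rose from 3.25 ± 0.326 to 14.9 ± 0.212 TPM (1.9 ± 0.16, adjusted p = 3.2e-05) and was 5.33 ± 0.243 TPM with GW9662. Among origin and DREAM complex genes, Orc6 rose from 22.2 ± 0.213 to 47.9 ± 2.74 TPM (1.08 ± 0.16, adjusted p = 0.00068) and Lin52 from 9.71 ± 0.2 to 28.6 ± 2.06 TPM (1.46 ± 0.15, adjusted p = 7.7e-05), while the pocket protein Rbl2 fell from 31.5 ± 0.143 to 5.0 ± 2.69 TPM (-2.56 ± 0.38, adjusted p = 0.00071). The polymerase epsilon subunit Pole2 fell from 3.99 ± 0.614 to 0.568 ± 0.187 TPM (-1.67 ± 0.2, adjusted p = 0.00023), the clamp loader Rfc1 from 13.4 ± 0.418 to 2.49 ± 1.27 TPM (-2.11 ± 0.33, adjusted p = 0.00091), and Ccnh, the cyclin of the Cdk-activating kinase, from 41.4 ± 0.142 to 20.6 ± 1.2 TPM (-0.98 ± 0.14, adjusted p = 0.00048). In GC+GW9662, Rbl2 and Rfc1 had means of 4.39 and 1.97 TPM and did not pass against GC. Orc6 (25.7 TPM) and Lin52 (13.9 TPM) were lower there than in GC, and Pole2 (2.69 TPM) and Ccnh (39.7 TPM) higher.

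Gene length moved with these differences over all tested genes. The median difference fell from 0.18 in the bin of the shortest genes to -1.03 in the longest of the equal-sized bins for GC minus Control, and from 0.41 to -0.53 for GC+GW9662 minus GC, with the length being the annotated one or that solved from the TPM steps. At the annotated exon length throughout, a check chosen after seeing the data, they went from 0.18 to -1.09 and from 0.4 to -0.51. The tested members had a median length of 3425.5 bases against 2816 bases over all. Against the median of their own length bin, 17 of the 42 tested members lay above and 25 below for GC minus Control, and 30 above and 12 below for GC+GW9662 minus GC. Of the 13 that did not pass in GC against Control, 12 lay above it. The medians of their bins were all below 0 (-0.28 to -1.03), so choosing members that did not pass favours that side. Members that passed lay on the side of their call in both comparisons, which choosing them by sign largely fixes. The GC libraries differed by length among themselves as well: GC replicate 1 against the other GC libraries went from 0.21 to -0.82, and it was the lowest GC library for 29 of 42 members (69.0%) against 56.5% of all tested genes. The part of this trend in the results was not tested beyond the fit that removed it.

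**Figure D4:**
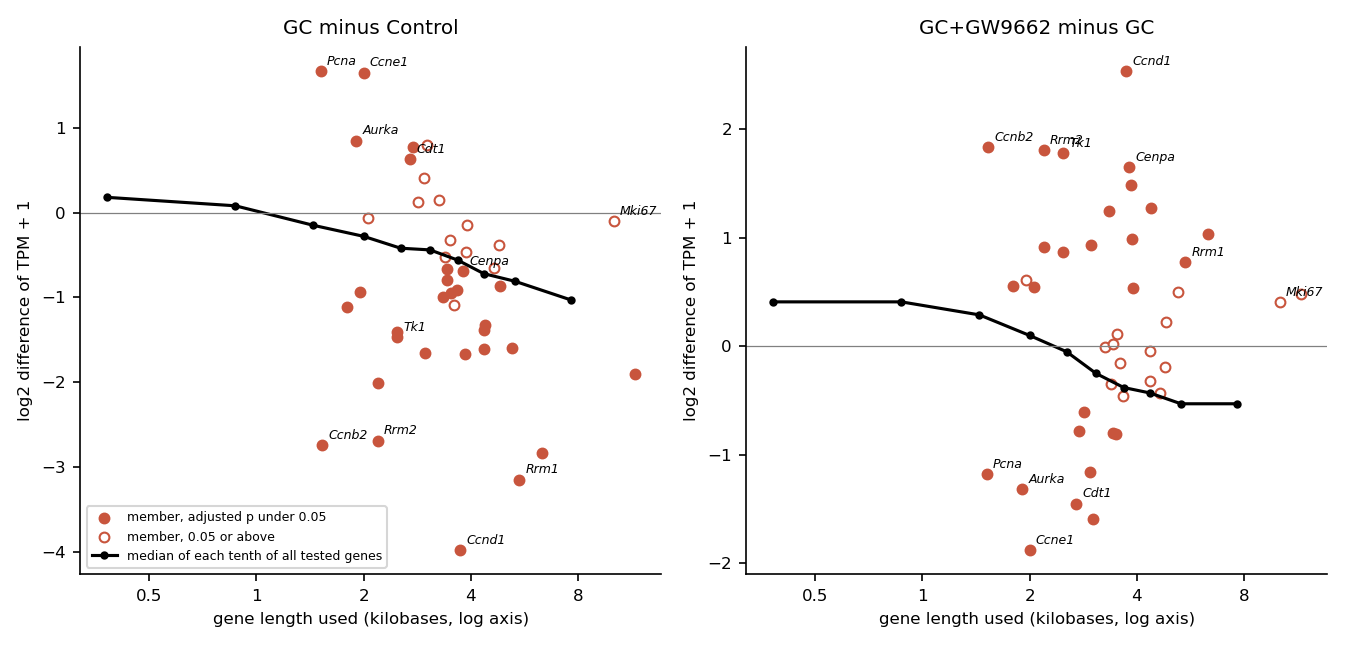
Difference of each tested member against the gene length used, annotated or solved from the TPM steps (log axis), for GC minus Control and GC+GW9662 minus GC, with the median of each length bin of all tested genes (black). The black line falls from 0.18 to -1.03 and from 0.41 to -0.53, and members of like length, such as Pcna and Ccnb2, lie far above and far below it.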

How the data were processed

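The values analysed were TPM as deposited by the authors, 1 value per gene and library, made with fastp, HISAT2 2.1.0 and featureCounts per the submitters' processing notes; the order of these tools, build, annotation and any use of strand: not given in the sources used here. As deposited, it held 54232 rows for 54134 genes; 98 repeat rows were dropped and 26 symbols turned into dates were restored from Ensembl IDs. Starts and ends matched GENCODE M21 (GRCm38) in 97.4% of rows. Steps between low TPM values gave whole reads (tolerance 0.02) for 26801 of 26812 genes above 0, but 3869 of 14985 tested genes did so at the M21 length; the others took the smallest length that makes their reads whole, which largely fixes that share. These estimated depths could fall short of the true ones, and they cover counting error only.

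The 14985 genes that reached 1 TPM in 2 or more libraries entered one limma fit (version 3.58.1, R 4.3.3) of log2(TPM + 1) on the 3 groups, using all 8 libraries. The prior variance was allowed to follow expression (empirical Bayes), tests were two-sided, and p-values were adjusted by Benjamini-Hochberg separately in the 3 comparisons, with a threshold of 0.05. The fit was tested on simulated data. Summaries and plots used Python 3.11.15 with numpy 2.4.6, pandas 2.3.3, numba 0.67.0 and matplotlib 3.10.9, and R used data.table (version 1.17.8).

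The members, the lists and their grouping were chosen with earlier results of these data known. Per-library values are given for the 3 members of each role with the highest mean TPM, for members higher in GC than in Control, and for members off the most common order of group means, as far as they passed in a comparison; Ccnb2 and Mki67 were taken besides for what they show. Of the further pathway genes, up to 2 per function with the smallest adjusted p in GC against Control are named. Alternatives were other pseudocounts, filters, scalings, priors, replicate blocks, library weights, separate fits of each pair of groups, leaving out each library and, chosen after seeing the data, voom on the recovered reads.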

Additional observations from a re-analysis of the deposited data

How the results depend on the processing

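Of the members called, 16 of 29 kept their call under every alternative in GC against Control and 21 of 27 in GC+GW9662 against GC. Of the 28 calls of GC+GW9662 against Control, only 9 were examined in this way, and 5 of them kept their call. The remaining calls there were not examined, among them those of Cdc6, Mcm4, Mcm5 and Foxm1. Alternatives were read gene by gene for the calls so examined and for Mki67 in GC against Control, not for other members. Among these the sign changed for Mcm3 and Mki67: Mcm3 in GC against Control was 0.07 under quantile normalization, and Mki67, at -0.1 in the full data, was 0.22 under median-ratio scaling, 0.3 under quantile normalization, 0.02 after rescaling without mitochondrial and top genes, 1.06 (adjusted p = 0.034) after removal of the length trend, 0.02 with a replicate block by title number, 0.03 with voom, and -0.21 to 0.07 when 1 library was left out (0.07 without GC replicate 3). The cause was not tested.

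Leaving out 1 library at a time gave 5513 to 9233 genes passing in GC against Control (8291 with all), 7278 to 10759 in GC+GW9662 against GC (9253) and 5598 to 10329 in GC+GW9662 against Control (9398). In the same order the members gave 19 to 31 (29), 22 to 30 (27) and 10 to 30 (28), and the further pathway genes 36 to 70 (67), 34 to 61 (43) and 23 to 65 (57). The lowest counts against Control came without a Control library, where the lone Control is assumed to vary like the other groups and fewer genes were tested. Library weights gave 78 pathway genes in GC+GW9662 against GC, and removal of the length trend gave 36 in GC+GW9662 against Control. Deviations of same-numbered GC and GC+GW9662 libraries from their group means correlated at -0.097, -0.117 and 0.079. With so few libraries per group, such values cannot decide whether the replicate numbers pair the libraries. With a replicate block by title number 25, 23 and 21 members passed in the 3 comparisons in the order above, and by bracket number 27, 24 and 24. Depth limits members such as Tk1, Ccnb1 and Ccnb2, whose GC values rest on an estimated 3 to 15 reads. A member below a stricter filter has no value there.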
